A study of Mus musculus with 8 samples.

Results

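The heat shock chaperones are the proteins that fold other proteins, keep unfolded ones from clumping and carry damaged ones to repair or removal. In the deposited expression table of mouse blastocysts, 84 of 19688 genes were counted, by a name pattern, as cytosolic and mitochondrial heat shock chaperones and their partners. Members were taken by symbol and fell into 10 families: 12 genes of HSP70 and HSP110, 2 of HSP90, 6 small heat shock proteins, 2 of the mitochondrial chaperonin, 10 of the cytosolic chaperonin CCT, 4, 12 and 28 J proteins of classes A, B and C, 6 BAG genes and 2 heat shock factors. The endoplasmic reticulum chaperone genes Hspa5 and Dnajb9 and 9 processed pseudogenes matched the name pattern and were left out. Other genes of the endoplasmic reticulum that match it, such as Dnajb11, Dnajb12 and Dnajb14, were kept as members. The groups compared were 3 libraries of embryos whose vitrification and thawing media held 1e-10 M melatonin, 3 of embryos vitrified and thawed without it, and 2 of fresh embryos that were never frozen, whose titles read IVF. Vitrification freezes embryos to a glass in cryoprotectant, and melatonin is a hormone with antioxidant properties. The labels give no mouse strain, no age of the animals and no number of embryos per library, and they do not state whether libraries came from separate animals or cultures, so p-values measure only the spread between these libraries.

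HSP70 proteins bind stretches of unfolded protein and release them in a cycle driven by ATP. J proteins deliver the client and start that cycle, while HSP110 and BAG proteins exchange the nucleotide and reset it. Clients that need more help pass to HSP90, to the ring-shaped chaperonin CCT in the cytosol or, inside mitochondria, to the chaperonin made of HSP60 and its lid HSP10. Small heat shock proteins hold unfolded clients without ATP. Under heat and other protein-damaging stress the transcription factor HSF1 binds repeated GAA and TTC units, the heat shock element, in the promoters of many of these genes. In the mouse, Hspa1b and Hspa1a are among the earliest genes of the embryonic genome to be transcribed, and HSF1 is needed as a maternal factor.

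The labelled tissue was checked against lineage markers. The summed level of 7 trophectoderm genes lay between 6606 and 11374 FPKM (fragments scaled by transcript length and library size) in the 8 libraries. Markers of the inner cell mass and epiblast, 5 genes, summed to 126 to 146 FPKM in melatonin, 128 to 158 in vitrified and 21.7 and 70.1 in fresh libraries. Markers of the primitive endoderm, also 5 genes, summed to 27.8 to 37.3 FPKM in melatonin, 46.6 to 57.8 in vitrified and 19.4 and 45.7 in fresh libraries, without overlap between melatonin and vitrified. Markers of fibroblasts summed to at most 0.168 and of cumulus cells to at most 4.35 FPKM. Fresh replicate 1 stood apart, at 52.5 on a first principal component that held 29.1% of the variance, with fresh replicate 2 at 14.2 and the other 6 libraries between -18.4 and -3.29. Mitochondrial transcripts took 4.24% to 4.93% of summed FPKM in melatonin, 4.55% to 5.89% in vitrified and 11.3% and 6.56% in fresh libraries. Transcripts of 21 Y-linked genes summed to 2.73 and 2.28 FPKM in vitrified replicates 2 and 3 and to between 23.6 and 41.3 FPKM in the other 6 libraries, while 0 members lie on X or Y. An estimated 5814000 to 9996000 fragments stood behind each library, so 1 FPKM of a 2 kb transcript equalled 11.6 to 20.0 fragments. Of these features, the primitive endoderm sum and the second component separated melatonin from vitrified libraries. The number of genes above 0 separated vitrified libraries from all others. The inner cell mass sum and mitochondrial share separated fresh from all others, while the trophectoderm and Y-linked sums did not follow the groups. The part of these features in the values given here was not tested. In bulk libraries, fewer cells of a type and less RNA per cell cannot be told apart.

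The promoters of some members carry heat shock element letters. Windows are printed for only some of these members, chosen with their expression values known. A link between the letters and the expression values was not tested. RefSeq promoters (GRCm38.p6, from 250 bases before to 50 bases after each annotated start) were matched for 67 of the 84 members. A pair of facing units, GAANNTTC or TTCNNGAA on either strand, stood in 20 of the 67 (29.9%), against 17.0% of the 27025 genes in the promoter table. A run of at least 3 alternating units, which contains such pairs, stood in 4 members, Dnajb6, Hspd1, Hspe1 and Hsph1 (5.97%), against 0.662% of all genes. Each window below is 30 bases long, written 5′ to 3′ on the strand of its gene, with the units in capitals. The Hspd1 and Hspe1 genes lie head to head, with their RefSeq starts 215 bases apart, and the same array of 4 units at chr1:55088053-55088082 is read on the minus strand for Hspd1 and on the plus strand for Hspe1. The windows of Hspa1a (chr17:34972242-34972271, minus strand) and Hspa1b (chr17:34959324-34959353, minus strand) hold the same letters. The others are Hsph1 (chr5:149636280-149636309, minus, after the start), Dnajb6 (chr5:29735843-29735872, plus), Dnaja1 (chr4:40722333-40722362, plus), Bag3 (chr7:128523603-128523632, plus, after the start) and Hspb1 (chr5:135887791-135887820, plus).
Hspd1: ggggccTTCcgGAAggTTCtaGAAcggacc
Hspe1: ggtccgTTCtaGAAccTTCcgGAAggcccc
Hsph1: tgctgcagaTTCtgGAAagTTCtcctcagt
Dnajb6: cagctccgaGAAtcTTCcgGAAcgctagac
Dnaja1: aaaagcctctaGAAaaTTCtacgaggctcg
Bag3: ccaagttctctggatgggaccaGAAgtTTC
Hspa1a: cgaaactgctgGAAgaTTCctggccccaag
Hspa1b: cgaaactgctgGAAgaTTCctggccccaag
Hspb1: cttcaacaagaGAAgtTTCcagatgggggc
A match describes these letters and is not a binding site measured here.

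The members together took 1.00% to 1.09% of summed FPKM in melatonin, 0.985% to 1.05% in vitrified and 0.755% and 0.959% in fresh libraries. Levels between genes are compared per length, in FPKM averaged over all 8 libraries. Hspa8, the constitutive cytosolic HSP70, was the highest member at 519 FPKM and ranked 102nd of all genes. It was followed by the constitutive HSP90 gene Hsp90ab1 (320 FPKM), the CCT subunit gene Cct5 (275) and the second cytosolic HSP90 gene Hsp90aa1 (247). Cct2 (218 FPKM), Hspa9 (176), Hspd1 (173), Cct6a (164), Cct8 (155) and Cct4 (127) completed the 10 highest, which held 54.7% to 62.0% of the members' FPKM in each library. The range of Hspa8 over the libraries, 409 to 617 FPKM, lay clear of all others, while neighbours from Hsp90ab1 to Cct7 overlapped in their ranges, so their order is not fixed by these data. At the other end, 20 members did not reach 1 FPKM in 2 libraries and were not tested; their highest single value was 1.32 FPKM, and 14 of them were listed at 0 in at least 1 library. All members of HSP90, the mitochondrial chaperonin, BAG and the heat shock factors were tested, whereas 5 of 12 members of HSP70 and HSP110 and 6 of 12 class B J proteins were not.

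**Figure D1:**
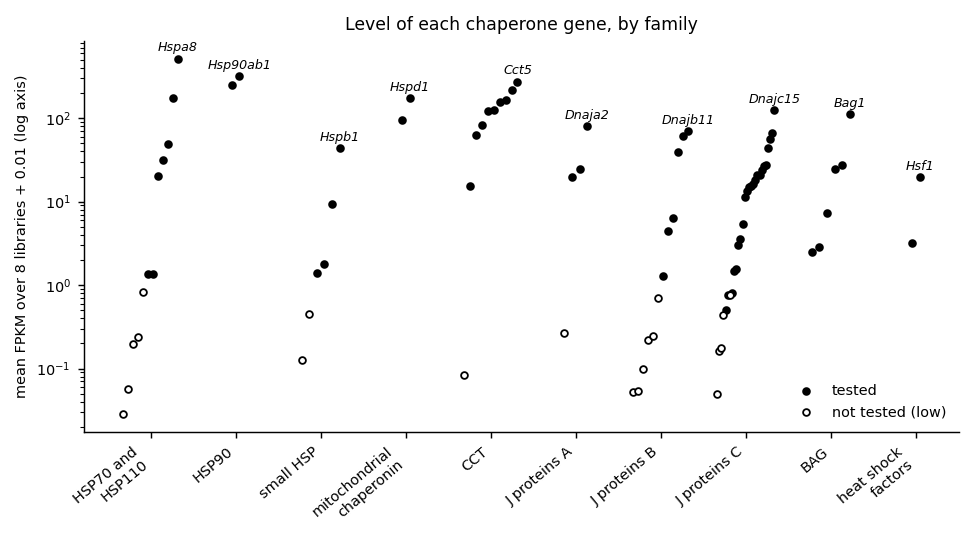
Mean FPKM over the 8 libraries of each chaperone gene (1 point per gene, log axis, 0.01 added), grouped by family, with the highest gene of each family named. Filled points are the 64 tested genes and open points the 20 that did not reach 1 FPKM in 2 libraries; Hspa8 stands highest at 519 FPKM.

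Differences were tested with limma on log2(FPKM + 1) over 10755 genes in 1 model of all libraries, with Benjamini-Hochberg adjusted p-values. None of the 64 tested members passed an adjusted p of 0.05 in any comparison. The background was 0.139% of all tested genes for melatonin against vitrified (15 genes), 0.865% for vitrified against fresh (93 genes) and 0% for melatonin against fresh (0 genes). Leaving out a library changed these backgrounds strongly. For melatonin against vitrified, 67 and 68 genes passed without fresh replicates 1 and 2, while the count was 8 and 5 when vitrified replicate 2 or 3 was dropped and 2 and 1 when melatonin replicate 1 or 3 was. For vitrified against fresh, 17 and 433 genes passed without fresh replicates 1 and 2, while dropping 1 vitrified library in turn gave 7, 8 and 2 genes and dropping 1 melatonin library gave 41, 51 and 6. For melatonin against fresh, 565 genes passed without fresh replicate 2, and at most 2 without any other single library.

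At an unadjusted limma p below 0.05, 4 members were higher and 4 lower in melatonin than in vitrified libraries, 6.25% each way, against 4.59% of all tested genes higher and 10.2% lower. Vitrified against fresh gave 12 members higher (18.8%, background 15.6%) and 5 lower (7.81%, background 4.56%). Melatonin against fresh gave 10 members higher (15.6%, background 11.6%) and 3 lower (4.69%, background 6.82%). The members' shares were thus near the background in most cases. The median log2 difference of the tested members was -0.00085 for melatonin against vitrified, 0.11 for vitrified against fresh and 0.09 for melatonin against fresh, beside -0.05, 0.14 and 0.09 for all tested genes. Median ratio scaling and quantile normalization moved the all-gene median of vitrified against fresh to -0.01 and -0.02, so differences from fresh below about this shift depend on the scaling.

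Family medians are given as a description. For melatonin against vitrified, the class B J proteins had a median log2 difference of 0.27, class A 0.16, class C 0.13, HSP90 0.00, CCT -0.06, BAG -0.11, HSP70 and HSP110 -0.12, heat shock factors -0.19, small heat shock proteins -0.24 and the mitochondrial chaperonin -0.40. The signs held under both scaling alternatives except for CCT, which stood at 0.01 under median ratio scaling. BAG stood at 0.035 without vitrified replicate 2 and at 0.01 with the title number as a replicate block. With only genes of a mean of at least 5 FPKM, HSP70 and HSP110 stood at 0.10 and the heat shock factors, then Hsf1 alone, at 0.04. HSP90 stayed near 0 with either sign. For vitrified against fresh, medians were 0.33 for the mitochondrial chaperonin, 0.26 for HSP90, 0.25 for class A J proteins, 0.23 for HSP70 and HSP110, 0.18 for CCT, 0.17 for BAG, 0.16 for small heat shock proteins, 0.04 for the heat shock factors, -0.04 for class C and -0.20 for class B J proteins. Median ratio scaling turned 4 of these to the other sign, CCT and small heat shock proteins to -0.01, BAG to -0.03 and the heat shock factors to -0.13, and quantile normalization turned the heat shock factors to -0.12. Single fresh libraries turned others. Without fresh replicate 1, HSP90 stood at -0.07 and BAG at -0.10, and without fresh replicate 2, class B J proteins stood at 0.08, class C at 0.19, the heat shock factors at -0.07 and small heat shock proteins at -0.13. With the title number as a replicate block, small heat shock proteins stood at -0.34, class B at 0.16 and class C at 0.25, and the mitochondrial chaperonin at 0.05. With only genes of a mean of at least 5 FPKM, the heat shock factors stood at -0.62, and without a filter class B stood at 0.08. CCT, the mitochondrial chaperonin, HSP70 and HSP110, and class A J proteins kept a positive median whichever library was left out, but the mitochondrial chaperonin stood at 0.13 without fresh replicate 2 and class A at 0.05 without fresh replicate 1. For melatonin against fresh, medians ran from 0.44 for HSP70 and HSP110 and 0.42 for class A J proteins to -0.15 for the heat shock factors. There, quantile normalization turned class B from 0.09 to -0.06, class C from 0.03 to -0.08 and the mitochondrial chaperonin from -0.07 to 0.02, and median ratio scaling turned class C to -0.08. Without fresh replicate 1, HSP90 stood at -0.07, class B at -0.20, class C at -0.17 and the mitochondrial chaperonin at 0.12, and HSP70 and HSP110 at 0.07. Leaving out a melatonin library also turned medians close to 0, those of the mitochondrial chaperonin (0.02 without replicate 1), class C (-0.01 without replicate 3) and small heat shock proteins (0.02 without replicate 3). Members of a family are not replicates, and no family was tested as a list. The comparisons share libraries, so their values are not independent of each other.

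**Figure D2:**
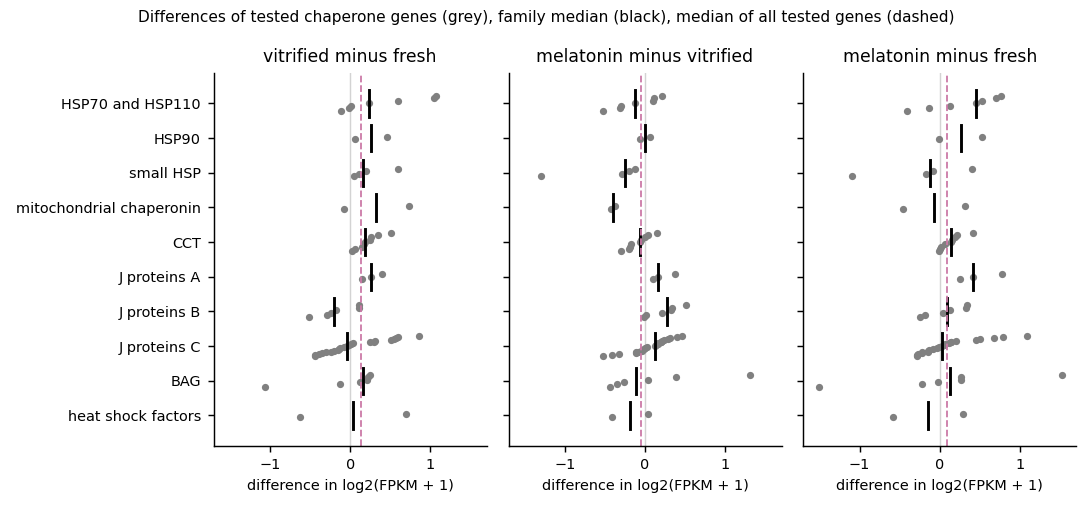
Differences in mean log2(FPKM + 1) for the 64 tested chaperone genes (grey points) by family in the 3 comparisons, with each family's median (black bar) and the median of all tested genes (dashed line). The J protein medians lie right of the dashed line for melatonin minus vitrified, the mitochondrial chaperonin lies left of it at -0.40, and under median ratio scaling CCT lies at 0.01 there; from fresh, 4 vitrified family medians change sign with that scaling and 6 when 1 fresh library is left out.

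Among HSP70 genes, Hspa8 (chr9:40800984-40810087, GRCm38) had 590, 617 and 559 FPKM in melatonin, 508, 506 and 509 in vitrified and 409 and 456 in fresh libraries. Every melatonin library lay above every vitrified one, and every vitrified above every fresh one. The log2 difference was 0.21 ± 0.11 (SE) for melatonin against vitrified (limma adjusted p = 0.414) and 0.44 ± 0.13 for melatonin against fresh (adjusted p = 0.156). The inducible genes of the family were almost silent. Hspa1a was listed at 0 to 0.0574 FPKM and Hspa1b at 0 to 0.607 FPKM, with the highest values of Hspa1b, 0.607 and 0.368 FPKM, in the fresh libraries. These 2 genes are near-identical copies, so fragments may be shared between them or lost. Hspa9, the mitochondrial HSP70, had 233, 152 and 169 FPKM in melatonin, 173, 138 and 201 in vitrified and 132 and 210 in fresh libraries, and all groups overlapped. Hspa14, a ribosome-bound HSP70, lay between 26.2 and 35.3 FPKM in all 8 libraries. Hspa13, of the microsomal membrane, lay between 0.889 and 2.39 FPKM.

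The lowest values of Hspa4, Hsph1 and Hspa2 were in fresh replicate 1, and only for Hspa4 were both fresh libraries below all others. Hspa4, a cytosolic relative of HSP110 that exchanges nucleotide on HSP70, had 57.6, 63.7 and 47.7 FPKM in melatonin, 53.2, 47.1 and 56.5 in vitrified and 30.7 and 37.7 in fresh libraries. Both fresh libraries lay below all others, with a log2 difference of 0.70 ± 0.18 for melatonin (limma adjusted p = 0.142) and 0.60 ± 0.18 for vitrified embryos (adjusted p = 0.108). Hsph1, which encodes HSP110 and carries 3 units after its start, had 22.5, 24.0 and 14.8 FPKM in melatonin, 25.2, 25.1 and 25.0 in vitrified and 6.84 and 18.7 in fresh libraries. The vitrified libraries were close together and above all others, but fresh replicate 2 reached into the melatonin range; vitrified against fresh gave 1.07 ± 0.35 (adjusted p = 0.132). Which fresh library was kept set this value: it was 0.41 (adjusted p = 0.487) without fresh replicate 1, the library that stood apart, and 1.73 ± 0.27 (adjusted p = 0.0183) without fresh replicate 2. In both cases the lone fresh library is assumed to vary like the other groups. Hspa2, an HSP70 best known from the germ line, had 1.28, 1.15 and 0.955 FPKM in melatonin, 2.60, 1.62 and 2.03 in vitrified and 0.0794 and 1.02 in fresh libraries. Hspa2 averaged 1.34 FPKM over the 8 libraries, so its values, and that of fresh replicate 1 above all, rest on few fragments. Its vitrified values lay above all others, at 1.05 ± 0.29 against fresh (adjusted p = 0.0912). That difference was 0.60 (adjusted p = 0.325) without fresh replicate 1 and 1.5 ± 0.28 (adjusted p = 0.0278) without fresh replicate 2.

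In vitrified libraries, values of the 2 heat shock factors lay on opposite sides of fresh. Hsf1, the main stress-activated factor, had 15.1, 23.0 and 14.9 FPKM in melatonin, 14.4, 17.8 and 18.6 in vitrified and 28.2 and 24.7 in fresh libraries. Both fresh libraries were above all others, with a log2 difference of -0.62 ± 0.22 for vitrified (limma adjusted p = 0.159) and -0.58 for melatonin embryos (adjusted p = 0.22). Hsf2, a factor with roles in development and gametogenesis, had 3.59, 2.93 and 2.17 FPKM in melatonin, 4.96, 4.18 and 3.4 in vitrified and 2.45 and 1.91 in fresh libraries. Vitrified values of Hsf2 lay above fresh ones, at 0.70 ± 0.24 (adjusted p = 0.148), and overlapped those of melatonin. Melatonin and fresh values of Hsf2 also overlapped, at 0.28 ± 0.24 (limma adjusted p = 0.558). Activity of HSF1 depends on its protein and is not seen in these values.

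The HSP90 genes were abundant in all groups. Hsp90ab1 had 375, 330 and 347 FPKM in melatonin, 329, 293 and 388 in vitrified and 199 and 295 in fresh libraries. Fresh replicate 1 was low and fresh replicate 2 lay within the vitrified range; the log2 difference was 0.53 ± 0.19 for melatonin against fresh (limma adjusted p = 0.207) and 0.46 ± 0.19 for vitrified against fresh (adjusted p = 0.219). The first of these was 0.25 (adjusted p = 0.665) without fresh replicate 1 and 0.81 (adjusted p = 0.0491) without fresh replicate 2. Hsp90aa1, the stress-inducible isoform, had 227, 243 and 251 FPKM in melatonin, 241, 269 and 246 in vitrified and 186 and 316 in fresh libraries. Its fresh values lay on either side of all others, so the groups did not separate.

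Small heat shock proteins were led by Hspb1, an actin-protecting chaperone, whose promoter holds 2 pairs of units. It had 27.6, 16.9 and 20.8 FPKM in melatonin, 27.3, 115 and 48.5 in vitrified and 61.3 and 35.3 in fresh libraries. Vitrified replicate 2 was by far the highest, and vitrified replicate 1 fell within the melatonin range. The log2 difference for melatonin against vitrified was -1.29 ± 0.45 (limma adjusted p = 0.246) and -0.74 without vitrified replicate 2 (adjusted p = 0.538), and every melatonin library lay below both fresh ones. Hspb2, a muscle chaperone whose gene overlaps Cryab on the other strand, lay between 3.28 and 13.2 FPKM. Hspb11, a subunit of intraflagellar transport despite its name, lay between 1.20 and 2.90 FPKM, and Hspb8, a partner of BAG3 in selective autophagy, between 0.114 and 3.21 FPKM, with overlapping groups for all 3 genes.

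The J protein genes Dnajb1 and Dnaja1 were higher with melatonin in every library. Dnajb1 (chr8:83608193-83612653), the stress-inducible J protein that helps HSP70 take aggregates apart, had 87.6, 66.4 and 70.1 FPKM in melatonin, 52.4, 48.9 and 53.9 in vitrified and 61.8 and 55.2 in fresh libraries. The vitrified group was the lowest and the melatonin group the highest, without overlap between any of the 3 groups. The log2 difference for melatonin against vitrified was 0.51 ± 0.15, with a 95% interval of 0.19 to 0.84 (limma adjusted p = 0.196). Dnaja1, a cytosolic J protein with a farnesyl anchor, had 23.7, 25.3 and 24.1 FPKM in melatonin, 21.4, 17.4 and 17.2 in vitrified and 10.7 and 17.9 in fresh libraries. All melatonin libraries were above all others, at 0.37 ± 0.20 against vitrified (adjusted p = 0.400) and 0.77 ± 0.22 against fresh (adjusted p = 0.154). The difference from fresh was 0.42 (adjusted p = 0.506) without fresh replicate 1 and 1.12 (adjusted p = 0.0263) without fresh replicate 2. Dnaja1 overlaps Smu1 on the other strand, and whether strand was used in counting is not stated.

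Other J proteins of classes A and B followed. Dnaja2, a close relative of Dnaja1, had 84.1 to 89.2 FPKM in melatonin, 76.9 to 84.4 in vitrified and 63.1 and 83.4 in fresh libraries. Dnaja3, the mitochondrial class A protein, had 22.6 to 34.7 FPKM in melatonin, 23.7 to 25.2 in vitrified and 19.7 and 21.0 in fresh libraries, where both fresh values were the lowest. Dnajb6, a suppressor of aggregation that carries 3 units in its promoter, had 43.3 to 44.2 FPKM in melatonin, 33.2 to 43.4 in vitrified and 29.6 and 40.5 in fresh libraries, and vitrified replicate 1 reached the melatonin values. Dnajb11, a J protein of the endoplasmic reticulum, had 66.1 to 87.2 FPKM in melatonin, 48.1 to 64.1 in vitrified and 66.6 and 102 in fresh libraries. The vitrified libraries were the lowest for Dnajb11, with a log2 difference from fresh of -0.51 ± 0.23 (limma adjusted p = 0.244). Dnajb12 and Dnajb14, membrane-bound J proteins of the endoplasmic reticulum, had 5.09 to 8.4 and 0.966 to 1.59 FPKM. Dnajb3, a gene expressed mainly in testis, had 1.81 to 9.49 FPKM, with both extremes in the fresh libraries; it was named after its values were seen. Dnajb4, a heat-inducible relative of Dnajb1, was low at 0.115 to 0.554 FPKM.

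Class C holds J proteins with separate tasks. Dnajc15, of the inner mitochondrial membrane, was the highest at 124 FPKM on average and had 105, 119 and 133 FPKM in melatonin, 112, 111 and 127 in vitrified and 152 and 136 in fresh libraries, with both fresh values above all others. Dnajc30, a mitochondrial protein linked to respiratory complexes, had 14.7, 18.8 and 18.6 FPKM in melatonin, 27.8, 26.1 and 22.2 in vitrified and 20.2 and 20.4 in fresh libraries. Its melatonin libraries were the lowest and its vitrified libraries the highest, at -0.52 ± 0.16 for melatonin against vitrified (limma adjusted p = 0.212); it overlaps Bud23 on the other strand. Dnajc24, which acts in making the diphthamide of elongation factor 2, had 11, 13.9 and 14.2 FPKM in melatonin, 8.16, 8.79 and 10.5 in vitrified and 11.2 and 14.2 in fresh libraries, with all vitrified values lowest. Dnajc8, a splicing-associated J protein, ran likewise, at 56.5 to 61.9 FPKM in melatonin, 43.9 to 50.2 in vitrified and 56.0 and 75.7 in fresh libraries. Dnajc9, a histone chaperone, stayed between 55 and 71.1 FPKM. Dnajc22 was listed at 0 in both fresh libraries and at 0.787 to 1.66 FPKM in melatonin and 0.375 to 1.19 in vitrified libraries.

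A few further class C genes were chosen after their values were seen. Dnajc14 had 46.7, 50.4 and 48.0 FPKM in melatonin, 39.4, 32.9 and 37.5 in vitrified and 44.9 and 48.5 in fresh libraries, so that vitrified libraries alone were low, by -0.35 ± 0.15 from fresh (limma adjusted p = 0.233). Dnajc7, a co-chaperone that binds both HSP70 and HSP90, had 23.6, 23.5 and 18.6 FPKM in melatonin, 24.2, 24.1 and 22.3 in vitrified and 13.4 and 17.1 in fresh libraries. Dnajc11, of the mitochondrial cristae-organizing machinery, had 13.5 to 18.5 FPKM in melatonin, 11.7 to 15.1 in vitrified and 8.32 and 10.5 in fresh libraries. For Dnajc7 and Dnajc11 both fresh libraries were the lowest, and Dnajc7 gave 0.60 ± 0.18 for vitrified against fresh (adjusted p = 0.110). Dnajc21, a ribosome biogenesis factor, was highest in the vitrified group, at 11.2 to 17.1 FPKM in melatonin, 17.7 to 19.2 in vitrified and 10.3 and 14.9 in fresh libraries.

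The highest log2 difference of any member with melatonin was that of Bag3. BAG3 binds HSP70 and small heat shock proteins and directs damaged clients to autophagy. Bag3 (chr7:128523616-128546981, GRCm38) had 57.3, 38.0 and 39.7 FPKM in melatonin, 22.3, 10.6 and 21.4 in vitrified and 10.7 and 20.3 in fresh libraries. All melatonin libraries lay above all others, and vitrified and fresh libraries overlapped. The log2 difference was 1.31 ± 0.32 for melatonin against vitrified, with a 95% interval of 0.60 to 2.02 (limma adjusted p = 0.156), and 1.52 ± 0.36 for melatonin against fresh (adjusted p = 0.136). The difference from fresh was 1.08 (adjusted p = 0.428) without fresh replicate 1 and 1.95 ± 0.40 (adjusted p = 0.0369) without fresh replicate 2. The Bag3 promoter window holds 1 pair of units after the start, as printed above.

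For no other BAG gene did every melatonin library lie above all others. Bag1, which couples HSP70 to the proteasome, was the highest, with 93.5, 94.1 and 99.6 FPKM in melatonin, 130, 116 and 122 in vitrified and 145 and 86.6 in fresh libraries. Melatonin values of Bag1 lay below the vitrified ones, while the fresh libraries lay on either side. Bag2, an inhibitor of the ubiquitin ligase CHIP, had 2.5, 1.33 and 0.570 FPKM in melatonin, 1.79, 4.36 and 1.13 in vitrified and 6.6 and 4.76 in fresh libraries. Both fresh values were above all others, and the log2 difference was -1.5 for melatonin (limma adjusted p = 0.155) and -1.06 ± 0.43 for vitrified embryos (adjusted p = 0.207). Bag5, a nucleotide exchange factor with several BAG domains, had 21.7 to 24.5 FPKM in melatonin, 26.8 to 28.6 in vitrified and 23.3 and 23.1 in fresh libraries, with the vitrified group above the others. Bag4, an adaptor at death receptors, and Bag6, which guards membrane proteins before insertion, lay between 5.36 and 9.32 and between 1.39 and 3.46 FPKM, with overlap between fresh and the other groups.

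**Figure D3:**
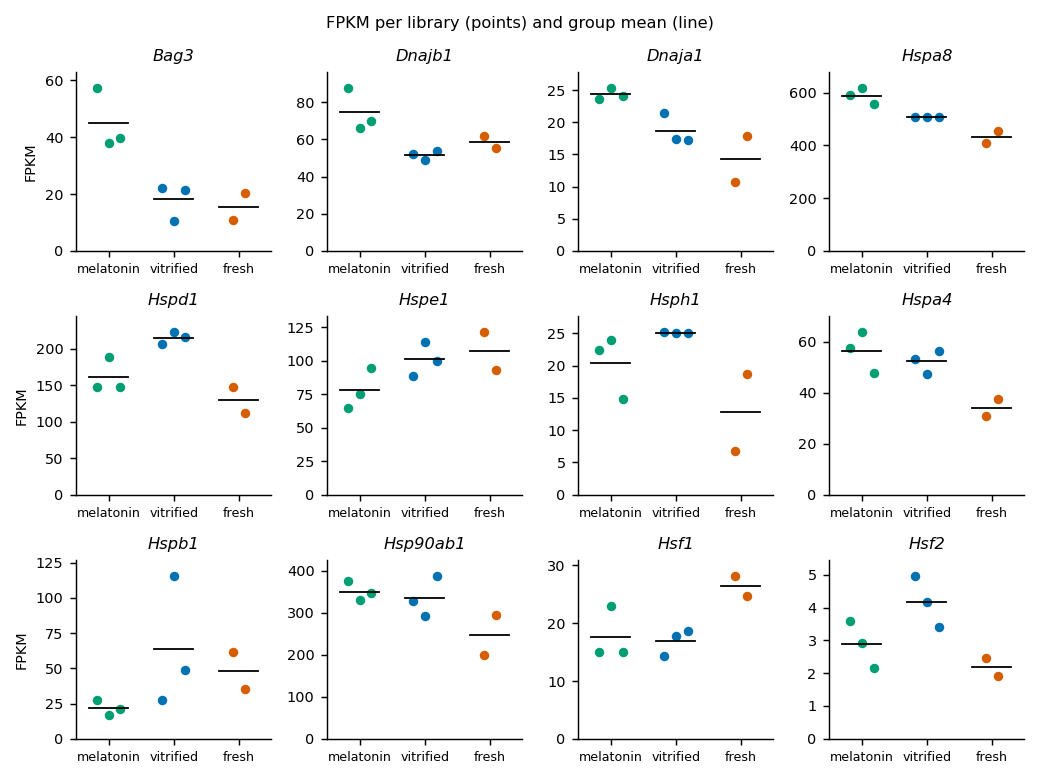
FPKM of 12 chaperone genes in each library (points, axes from 0) with the group mean (line), for melatonin, vitrified and fresh blastocysts. Bag3, Dnajb1, Dnaja1 and Hspa8 have every melatonin point above every other point; Hspd1 and Hsph1 have every vitrified point above every other point; both Hsf1 points of the fresh group are above all others.

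Counts of members whose libraries separated were set beside the same counts over all tested genes. Every melatonin library lay above every other library for 4 members, Bag3, Dnaja1, Dnajb1 and Hspa8 (6.25%, background 3.86%), and below for 1, Dnajc30 (1.56%, background 4.25%). Every vitrified library lay above every other library for 8 members, Bag5, Cct3, Cct8, Dnajc21, Dnajc30, Hspa2, Hspd1 and Hsph1 (12.5%, background 8.03%). It lay below for 5, Dnajb1, Dnajb11, Dnajc14, Dnajc24 and Dnajc8 (7.81%, background 2.77%). These 5 are J proteins, which make up 32 of the 64 tested members. Both fresh libraries lay above every other library for 3 members, Bag2, Dnajc15 and Hsf1 (4.69%, background 5.22%), and below for 9, among them Hspa8, Hspa4, Dnaja3, Cct4, Cct5 and Cct8 (14.1%, background 12.5%). The shares highest and lowest in fresh were near their background; the others rest on 1 to 8 genes, and none of these differences from the background was tested.

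The mitochondrial chaperonin genes, which share the promoter array printed above, differed in their pattern. Hspd1 (chr1:55077835-55088243), the gene of HSP60, had 147, 189 and 148 FPKM in melatonin, 206, 223 and 216 in vitrified and 148 and 112 in fresh libraries. Every vitrified library lay above every other library, and melatonin and fresh libraries overlapped; in GENCODE M21, which places the Hspd1 start farther out than RefSeq does, the 5′ ends of both genes overlap on opposite strands. The log2 difference was -0.42 ± 0.16 for melatonin against vitrified (limma adjusted p = 0.266) and 0.74 ± 0.17 for vitrified against fresh, with a 95% interval of 0.35 to 1.12 (adjusted p = 0.0663, the lowest of any member). Hspe1 (chr1:55088132-55091307), the gene of HSP10, had 64.5, 74.9 and 94.4 FPKM in melatonin, 88.7, 114 and 100 in vitrified and 121 and 93.2 in fresh libraries. Its groups overlapped, at -0.38 ± 0.18 for melatonin against vitrified (adjusted p = 0.366) and -0.08 ± 0.20 for vitrified against fresh (adjusted p = 0.858).

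The ratio of Hspd1 to Hspe1 FPKM was formed after these values were seen. It was 2.28, 2.52 and 1.56 in melatonin, 2.33, 1.95 and 2.16 in vitrified and 1.22 and 1.20 in fresh libraries. All 6 vitrified libraries, with and without melatonin, thus lay above both fresh ones. Exact two-sided permutation tests gave p = 0.2 for melatonin and for vitrified against fresh, the smallest that 10 splits allow, and p = 0.9 for melatonin against vitrified; adjusted over 6 tests these were 0.3 and 0.9. The processed pseudogene Hspd1-ps3 was listed at 71.8, 91.7 and 65.6 FPKM in melatonin, 128, 127 and 126 in vitrified and 80.1 and 47.1 in fresh libraries. It followed the order of Hspd1, and fragments may have been divided between them, so levels of both are uncertain. With pseudogene copies of both genes added, the ratio was 2.61, 2.91 and 1.84 in melatonin, 2.92, 2.25 and 2.69 in vitrified and 1.40 and 1.31 in fresh libraries, and the groups kept their order.

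**Figure D4:**
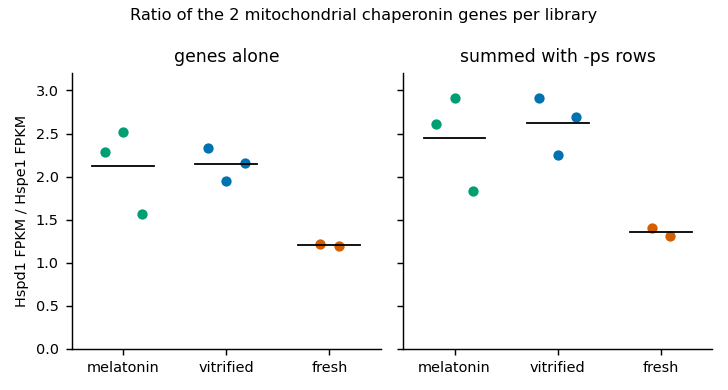
Ratio of Hspd1 to Hspe1 FPKM in each library (points), for the genes alone and with pseudogene copies added, for melatonin, vitrified and fresh blastocysts. Fresh libraries lie at 1.22 and 1.20 for the genes alone, below all 6 libraries of vitrified embryos, which lie between 1.56 and 2.52.

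The cytosolic chaperonin CCT, a double ring of 8 different subunits that folds actin and tubulin, showed a low median spread between libraries. Genes of the 8 subunits averaged 275 ± 19.8 FPKM for Cct5, 218 ± 9.60 for Cct2, 164 ± 19.2 for Cct6a, 155 ± 24.8 for Cct8, 127 ± 16 for Cct4, 124 ± 11.3 for Cct7, 83.1 ± 8.76 for Tcp1 and 63.6 ± 6.34 for Cct3 (SD, n = 8 libraries). Cct5, Cct2, Tcp1 and Cct3 held the same ranks in all 8 libraries, 1st, 2nd, 7th and 8th, while Cct6a and Cct8, and Cct4 and Cct7, exchanged places. Although the protein ring holds each subunit in equal number, Cct5 stood at 4.35 times the FPKM of Cct3 on average, between 3.79 and 5.02 in single libraries. The median coefficient of variation over the 8 libraries was 10.3% for these genes, beside 13.2% for the 21 members and 17.5% for the 1333 tested genes with a mean of at least 50 FPKM.

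Among the subunits, Cct8 had the largest log2 differences in both comparisons with the vitrified group. It had 140, 158 and 144 FPKM in melatonin, 188, 188 and 168 in vitrified and 130 and 124 in fresh libraries, with no overlap between any groups. The log2 difference was -0.30 for melatonin against vitrified (limma adjusted p = 0.301) and 0.51 ± 0.14 for vitrified against fresh (adjusted p = 0.0821). Cct8 overlaps Usp16 on the other strand. Cct4 had 136, 149 and 136 FPKM in melatonin, 120, 123 and 136 in vitrified and 98.6 and 113 in fresh libraries, with 0.41 for melatonin against fresh (adjusted p = 0.192). Both fresh libraries were the lowest for Cct4, and likewise for Cct5, at 236 and 267 FPKM beside 273 to 306 in melatonin and 273 to 287 in vitrified libraries. Cct3 was slightly higher in vitrified libraries, at 66.8 to 73.3 FPKM, against 54.3 to 66.3 in melatonin and 60.4 and 56.3 in fresh libraries. Cct6b, the copy of the zeta subunit known from testis, lay between 11.7 and 19.8 FPKM, where Cct6a had 7.43 to 14.2 times its level.

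**Figure D5:**
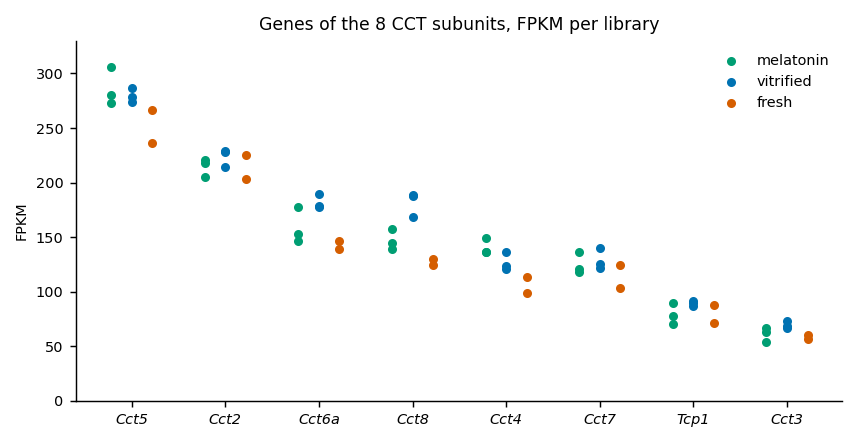
FPKM of the genes of the 8 CCT subunits in each library (points), ordered by mean level, for melatonin, vitrified and fresh blastocysts. Cct5 is highest and Cct3 lowest in all 8 libraries, and the points of Cct8 separate by group, with vitrified at 168 to 188 FPKM.

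Genes with classical heat shock induction were looked at as a list of 14, of which 10 were tested. Their median log2 difference was -0.10 for melatonin against vitrified, 0.20 for vitrified against fresh and 0.33 for melatonin against fresh, and 0 passed an adjusted limma p of 0.05. At an unadjusted p below 0.05, 2 were higher and 2 lower with melatonin than without it (20% each way, background 4.59% and 10.2%). In vitrified against fresh embryos 2 were higher and 0 lower (20% and 0%, background 15.6% and 4.56%), and with melatonin against fresh 3 were higher and 1 lower (30% and 10%, background 11.6% and 6.82%). With 10 genes, 1 gene makes 10% of the list. Bag3 and Dnajb1 were higher while Hspd1 and Hspb1 were lower with melatonin than without it at that threshold. Promoters were matched for 12 of the 14 listed genes, and 10 of these 12 (83.3%) hold a pair of facing units. Those of Bag3, Hspd1 and Hspb1 are among them, and that of Dnajb1 holds none in the stretch searched. A link between these letters and the differences was not tested. Of 41 other co-chaperones and mitochondrial proteases, 39 were tested and 0 passed an adjusted p of 0.05 in any comparison. Their medians were 0.04 for melatonin against vitrified, 0.00 for vitrified against fresh and -0.02 for melatonin against fresh. At an unadjusted p below 0.05, 5 were higher and 4 lower with melatonin than without it (12.8% and 10.3%, background 4.59% and 10.2%). Vitrified against fresh gave 1 higher and 1 lower (2.56% each way, background 15.6% and 4.56%), and melatonin against fresh gave 4 and 2 (10.3% and 5.13%, background 11.6% and 6.82%). Stip1, the adaptor that hands clients from HSP70 to HSP90, had 320, 290 and 281 FPKM in melatonin, 255, 206 and 210 in vitrified and 190 and 225 in fresh libraries, with 0.41 for melatonin against vitrified (adjusted p = 0.238); it was named after its values were seen.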

How the data were processed

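RNA was sequenced from 8 libraries of mouse blastocysts. The series description names Smart-seq2, while the labels' protocol describes a stranded library made from poly(A) RNA, and which was used is not settled. The authors deposited 1 table of FPKM on build mm10, per the submitters' processing notes; for aligner, counter, annotation and strandedness, the entry is: not given in the sources used here. Groups and replicate numbers come from the biosample descriptions; numbers in the titles differ. Fragments per library were estimated from the steps between low values (94.2% to 96.7% within 0.1 of a whole multiple). Genes with at least 1 FPKM in at least 2 libraries (10755) were tested on log2(FPKM + 1), pseudocount 1, with limma 3.58.1 in R 4.3.3 (eBayes with trend, two-sided, Benjamini-Hochberg over all tested genes, calls at 0.05). Differences on this scale understate changes of low genes. The model was run on simulated data with log2 changes larger than those of any member. Its power at the sizes reported here was not tested. Positions came from GENCODE M21 and promoters from RefSeq GRCm38.p6. Python 3.11.15, scipy 1.17.1, numpy 2.4.6, matplotlib 3.10.9 and pandas 2.3.3 were used. Members and lists were chosen with earlier results of these data known. Named are a set of well-known members, the 3 highest of each family by mean FPKM and the extremes of each family and comparison by log2 difference. Alternatives were other scalings, pseudocount, filter, model settings, replicate blocks, adjusted p below 0.1 and each library left out. Pseudogene copies summed with their parents were added after the data were seen.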

Additional observations from a re-analysis of the deposited data

How the results depend on the processing

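No tested chaperone gene passed an adjusted limma p of 0.05 under any setting, except without fresh replicate 2, where 2 passed for vitrified against fresh (Hspa2, Hsph1) and 4 for melatonin against fresh (Bag3, Dnaja1, Hsp90ab1, Hsph1). Without fresh replicate 1 none passed in either comparison, and Hsph1 for melatonin against fresh was 0.09 in place of 0.76. Over the settings that leave out 1 library the counts ran from 0 to 2 for vitrified against fresh, 0 to 0 for melatonin against vitrified and 0 to 4 for melatonin against fresh. At an adjusted p below 0.1, 3 members passed for vitrified against fresh. The median log2 difference of the members ran from -0.02 to 0.03 for melatonin against vitrified, from -0.0046 to 0.24 for vitrified against fresh and from -0.013 to 0.19 for melatonin against fresh when libraries were left out. For melatonin against vitrified it moved to 0.061 under median ratio scaling and 0.062 under quantile normalization, for vitrified against fresh to -0.049 under median ratio scaling, and for melatonin against fresh to -0.026. With the biosample number as a replicate block, 0 members passed and the medians were -0.00085, 0.09 and 0.06 in the same order; with the title number as a replicate block the medians were 0.26 for vitrified and 0.22 for melatonin against fresh. Same-numbered libraries deviated with correlations of -0.115 to 0.121 (biosample) and -0.115 to 0.0392 (title). With 2 or 3 libraries in a group, these values cannot settle whether libraries were paired. The numbers were not taken as pairs because the labels do not say that a number marks a shared litter, batch or day. Among all tested genes, vitrified against fresh gave 93 calls, but 7 under median ratio scaling, 3 under quantile normalization and 1 without a filter. It gave 10 with only the 2 groups compared and 1 or 39 with biosample or title block. Melatonin against vitrified gave 15 calls, but 69 with only the 2 groups, 6 with a pseudocount of 0.1 and 8 under quantile normalization. It gave 1 and 0 with biosample and title block. Melatonin against fresh gave 0 calls, but 44 with the title block, 5 with a pseudocount of 0.1 and 2 with only the 2 groups. In that comparison with the title block, Bag2, Bag3, Dnaja1, Hspb1 and Hsph1 had an adjusted limma p below 0.1. The causes were not tested. Of 2456 recomputed differences of single named genes, 159 moved by more than the spread between replicates and 136 changed sign; no member was called in the first place. Depth limits members below about 1 FPKM, which rest on few fragments.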

Other observations

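The pseudogene Dnajc19-ps was listed at 195, 353 and 322 FPKM in melatonin, 238, 256 and 298 in vitrified and 398 and 317 in fresh libraries, where Dnajc19, the gene of a mitochondrial import partner, averaged 18.4 FPKM. How the authors counted fragments that match both is not stated, so the level of Dnajc19 is uncertain. Of the 64 tested members, 34 overlap another annotated gene and 28 of these overlap one on the other strand.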
